A study of Mus musculus with 34 samples.

Results

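The genes described are 6 that mark myelin and the Schwann cells that make it: Mbp, Pmp22, Prx, Sox10, Mag and Egr2. They were chosen by gene symbol as a measure of the intramuscular nerve carried in each muscle sample, and all 6 are among the 23011 genes of the table. RNA was sequenced from 34 libraries of mouse soleus and plantaris, with 4 libraries in each group except the 2 aged sedentary groups, which have 5. The trained mice ran in wheels with a progressively added load (PoWeR, progressive weighted wheel running) for 8 weeks and were killed 24 h after the wheels were locked, and the sedentary mice were matched to them in age. The groups are aged soleus PoWeR, aged soleus sedentary, aged plantaris PoWeR and aged plantaris sedentary at 24 months, then young soleus PoWeR, young soleus sedentary, young plantaris PoWeR and young plantaris sedentary at 6 months. All mice were female and were fasted overnight, and the labels used here give no strain, no genetic change and no statement that each library is a separate animal. The names of most young libraries run several numbers together, and the labels do not say whether those libraries are pools; a pool would vary less than single animals, so the SDs, standard errors and age tests that use the young groups carry that limit.

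Myelin in peripheral nerve is the membrane of a Schwann cell wrapped around an axon. SOX10 is the transcription factor that Schwann cells need throughout their development, and EGR2 (Krox20) acts with it to turn on the myelin genes. MBP and PMP22 belong to the compact layers of the sheath, PRX (periaxin) links the outer Schwann cell membrane to its skeleton and to DRP2 and dystroglycan, and MAG sits on the inner face that touches the axon. In whole muscle, Schwann cells are a minor population, so a level of these genes is set by how much nerve was taken with the muscle as well as by what the cells transcribe. In bulk RNA, fewer Schwann cells and less RNA per Schwann cell cannot be told apart.

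RefSeq (GRCm38.p6) supplied promoter sequence for 4 of the genes, Prx, Mag, Egr2 and Pmp22. The 250 bases before the start of Prx and before 1 of the 3 starts of Mag are shown because Prx had the lowest adjusted p of the 6 genes in any comparison, and because these were the promoters with a match to the factors among the genes. The capitals in Prx mark the core letters of the EGR family site, GCGTGGG, read on the minus strand at chr7:27499074-27499323 (plus strand gene), and the capitals in Mag mark a SOX core, ACAAAG, also read on the strand opposite to the gene at chr7:30914864-30915113 (minus strand gene).
Prx: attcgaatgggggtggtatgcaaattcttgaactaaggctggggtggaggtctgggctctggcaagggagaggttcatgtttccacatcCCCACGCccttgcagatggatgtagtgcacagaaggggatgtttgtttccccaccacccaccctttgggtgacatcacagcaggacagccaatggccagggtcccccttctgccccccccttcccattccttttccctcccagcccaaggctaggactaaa
Mag: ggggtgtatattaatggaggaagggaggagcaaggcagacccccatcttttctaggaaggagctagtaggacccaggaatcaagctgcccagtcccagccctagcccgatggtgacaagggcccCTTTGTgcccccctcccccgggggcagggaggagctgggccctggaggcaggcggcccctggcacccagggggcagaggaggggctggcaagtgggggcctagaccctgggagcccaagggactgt
GCGTGGG stood on either strand in 4.3% of the 32851 promoters of the same length, ACAAAG in 16.5%, ACAATG in 10.7%, TATAAA in 12.4% and the longer EGR site GCGTGGGCG, which holds GCGTGGG, in 0.536%. None of these letters stood in the windows of the 4 starts of Pmp22 or the 5 starts of Egr2. The matches describe letters in these windows only.

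On mm10, the deposited table places Mbp at chr18:82475146-82585637 and Pmp22 at chr11:63128982-63159547, both on the plus strand. Prx lies at chr7:27497388-27520214 on the plus strand and Mag at chr7:30899176-30914873 on the minus strand. Sox10 lies at chr15:79154908-79165240 on the minus strand and Egr2 at chr10:67535475-67542188 on the plus strand. All 6 are protein-coding. The antisense gene Gm15541 lies inside Prx and had 203 reads over all libraries, against 5142 for Prx, and the pseudogene Rpl21-ps8 lies inside Mbp on the other strand and had 171 reads, against 11412 for Mbp. Whether the counting used strand is not given in the sources used here, so reads of those pairs may be mixed.

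Expected counts per library summed to between 15237626 and 26250461 reads. Levels are given as CPM, reads scaled to a common library total after adjustment by TMM, a factor that balances the libraries on the bulk of their genes. At that depth Mbp had 88 to 1353 reads per library, Pmp22 191 to 1337 and Prx 19 to 491, whereas Sox10 had 3 to 50, Egr2 3 to 43 and Mag 0 to 20. Mag was at 0 reads in 3 libraries, where 3 reads would be 0.18 to 0.186 CPM. The low counts leave differences in Sox10, Egr2 and Mag poorly resolved, and Mag passed the filter on low counts only in the fits of the plantaris libraries and of the young libraries.

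The libraries labelled young plantaris went against their label. Myh7, the slow myosin heavy chain, averaged 458 ± 386 CPM in aged plantaris sedentary (SD, n = 5), against 22629 ± 3002 CPM in the sedentary libraries labelled young plantaris (n = 4), which was near the 23033 ± 3038 CPM of aged soleus sedentary (n = 5). They stay in the group of their label, and every result set against them carries that limit. Among markers of oligodendrocytes, which make some of the same proteins in the central nervous system, Mobp and Ermn were each at 0 in 26 of 34 libraries.

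Per kilobase of exon, Pmp22 was the most abundant of the 6 in all 8 groups, followed by Mbp and then Prx, and Mag was the lowest in all 8. In aged soleus sedentary the mean level was 16.03 ± 2.81 CPM per kb for Pmp22 and 1.86 ± 0.373 CPM per kb for Mbp (SD, n = 5). Prx had 0.639 ± 0.206, Sox10 0.261 ± 0.0902, Egr2 0.231 ± 0.103 and Mag 0.0524 ± 0.0526 CPM per kb in the same group. Sox10 and Egr2 differed by less than their spread there, and their order turned in aged plantaris sedentary, where Egr2 had 0.199 ± 0.113 and Sox10 0.112 ± 0.0792 CPM per kb.

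**Figure D1:**
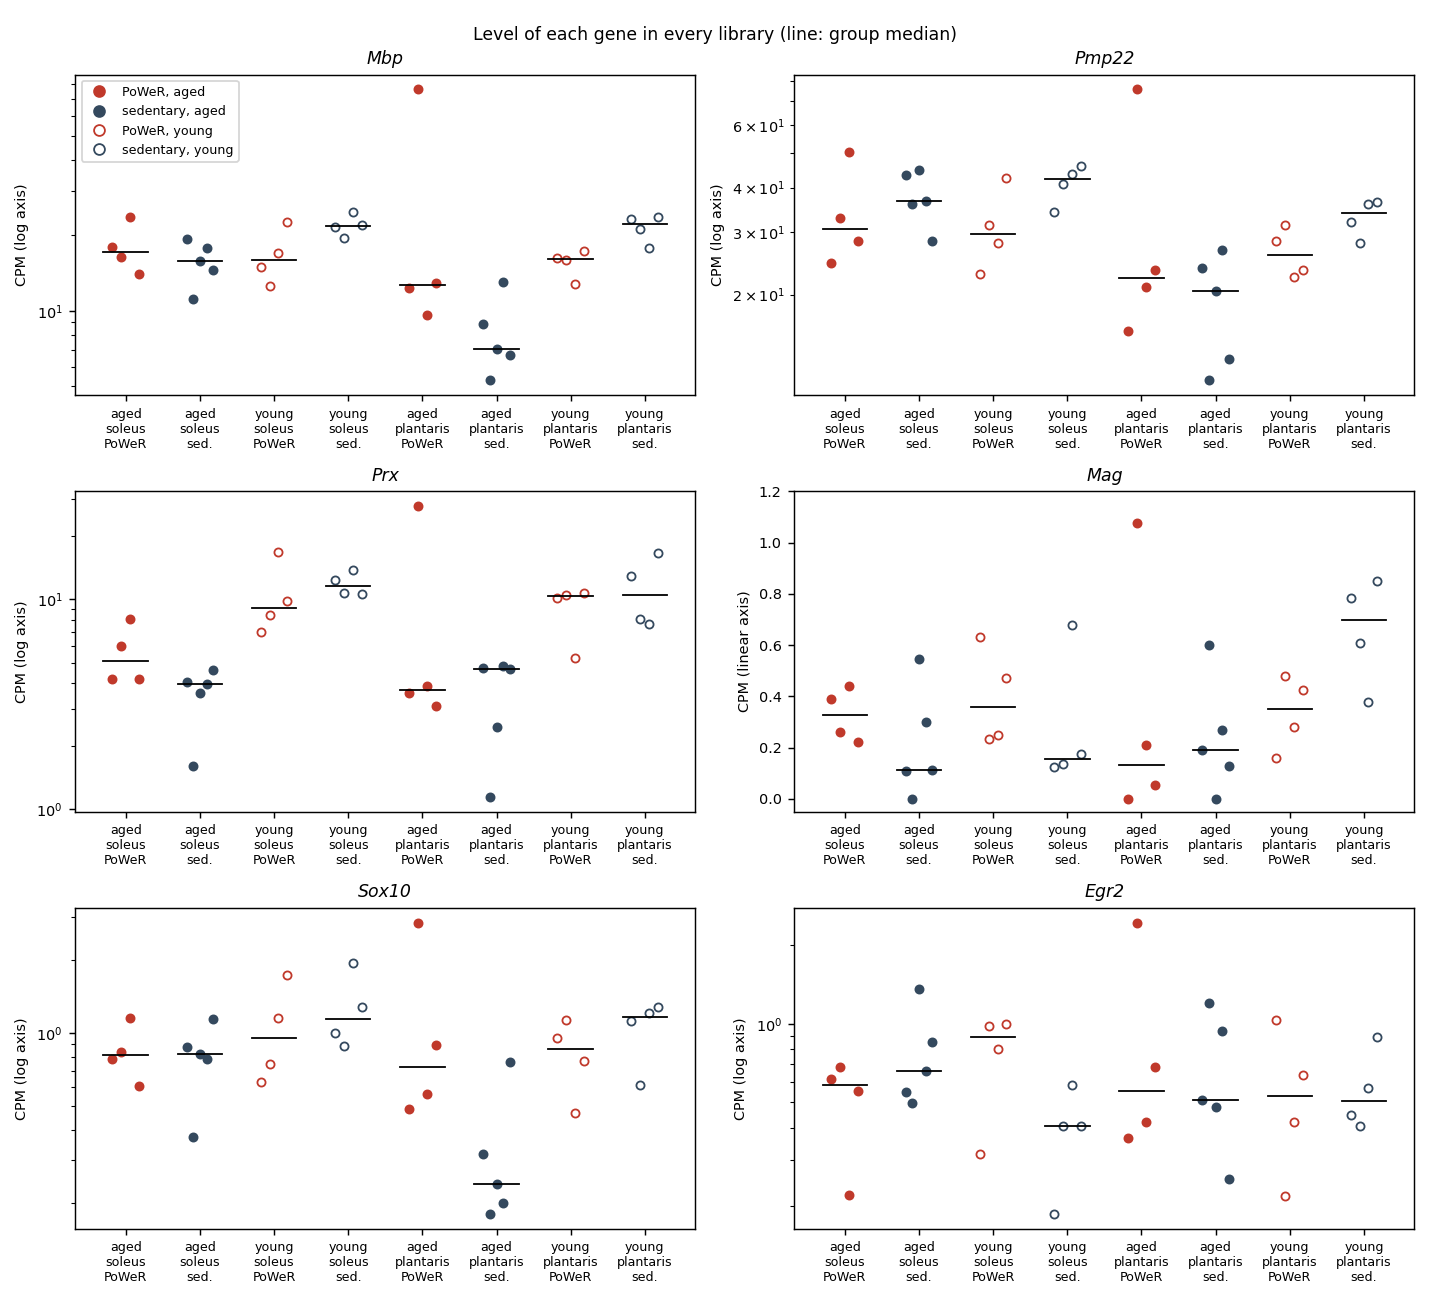
Level of each gene (CPM; log axis except Mag, which is linear) in every library of the 8 groups, with filled points for aged and open points for young mice, red for PoWeR and dark for sedentary, and a line at the group median. One aged plantaris PoWeR library, replicate 12, lies above the other libraries for Mbp (76.6 CPM), Pmp22 (75.7 CPM), Prx (27.8 CPM), Sox10, Mag and Egr2, and the open points of Prx in soleus lie above the filled points of the sedentary mice.

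The first comparison asks how training changed the muscle of old mice, and in aged plantaris the answer for the myelin genes rested on 1 library. The compact myelin gene Mbp had 12.4, 76.6, 9.67 and 12.97 CPM in aged plantaris PoWeR replicates 10, 12, 14 and 15, against 8.87, 5.29, 7.07, 13.1 and 6.67 CPM in aged plantaris sedentary replicates 12 to 16. Pmp22 had 15.8, 75.7, 21.1 and 23.4 CPM in the PoWeR libraries, against 23.7, 11.5, 20.4, 26.6 and 13.1 CPM in the sedentary libraries. Prx had 3.58, 27.8, 3.85 and 3.10 CPM in the PoWeR libraries, against 4.72, 1.14, 2.46, 4.81 and 4.64 CPM in the sedentary libraries. PoWeR replicate 12 was the highest library in each of these genes, and the other 3 PoWeR libraries overlapped the sedentary range.

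The regulators and Mag showed the same library on top. Sox10 had 0.485, 2.83, 0.560 and 0.893 CPM in the PoWeR libraries, against 0.319, 0.180, 0.240, 0.2003 and 0.762 CPM in the sedentary libraries. Egr2 had 0.364, 2.44, 0.420 and 0.683 CPM in the PoWeR libraries, against 0.510, 1.203, 0.479, 0.935 and 0.254 CPM in the sedentary libraries. Mag had 0, 1.08, 0.210 and 0.0525 CPM in the PoWeR libraries, against 0.191, 0.601, 0, 0.267 and 0.127 CPM in the sedentary libraries. For Sox10, 2 of the other 3 PoWeR libraries were also within the sedentary range and the third lay above it.

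None of the 6 genes passed the test in aged plantaris, where 4 of 15280 genes did (0.0262%). The log2 fold changes, PoWeR over sedentary, were 1.81 ± 0.53 (SE) for Mbp and 1.83 ± 0.57 for Sox10, with edgeR adjusted p of 0.272 and 0.275. They were 1.47 ± 0.64 for Prx, 0.86 ± 0.39 for Pmp22, 0.57 ± 0.60 for Egr2 and 0.53 ± 0.90 for Mag. The median of the 6 was 1.17, against 0.01 over all genes tested. Without PoWeR replicate 12 the values were 0.51 for Mbp, 0.93 for Sox10, 0.07 for Pmp22, -0.02 for Prx, -0.45 for Egr2 and -1.46 for Mag, so that 3 of the 6 changed sign.

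PoWeR replicate 12 was also high in genes outside myelin. Against the median of the other 3 PoWeR libraries, Prx was 7.77-fold, Mbp 6.19-fold, Egr2 5.79-fold, Sox10 5.05-fold and Pmp22 3.59-fold higher in it, and no fold is given for Mag, whose reads in the other 3 were too few. All 10 other genes of the myelin membrane were above the 3 libraries, with a median of 3.71-fold. Other Schwann cell lists were mixed: receptors and adhesion molecules were above in 8 of 11 cases (median 1.49-fold) and non-myelinating genes in 6 of 8 (2.1-fold). Transcription factors were above in 3 of 9 (1.07-fold), myelin lipid synthesis in 4 of 8 (1.06-fold) and repair genes in 3 of 8 (0.503-fold). Of the other nerve lists, axon genes were above in 7 of 9 cases (median 2.65-fold). Node and paranode genes were above in 4 of 6 (2.29-fold) and perineurium genes in 4 of 6 (2.12-fold). The axon and node medians rest on the 3 and 4 genes with enough reads for a fold. The share of all genes above the 3 libraries was not computed, so these counts have no background beside them. Adipocyte genes were above all 3 in 7 of 8 cases with a median of 19.6-fold, among them Cfd (512.7 CPM, against at most 48.95 CPM) and Adipoq (91.1 CPM, against at most 10.8 CPM). Macrophage genes had a median of 3.69-fold and were above in 5 of 6 cases, and immediate early genes 2.08-fold and 7 of 8. Tendon genes had a median of 1.12-fold, endothelial genes 0.897-fold and fast fibre genes 0.713-fold. The part of fat, macrophages or other tissue in the level of the 6 genes was not tested.

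**Figure D2:**
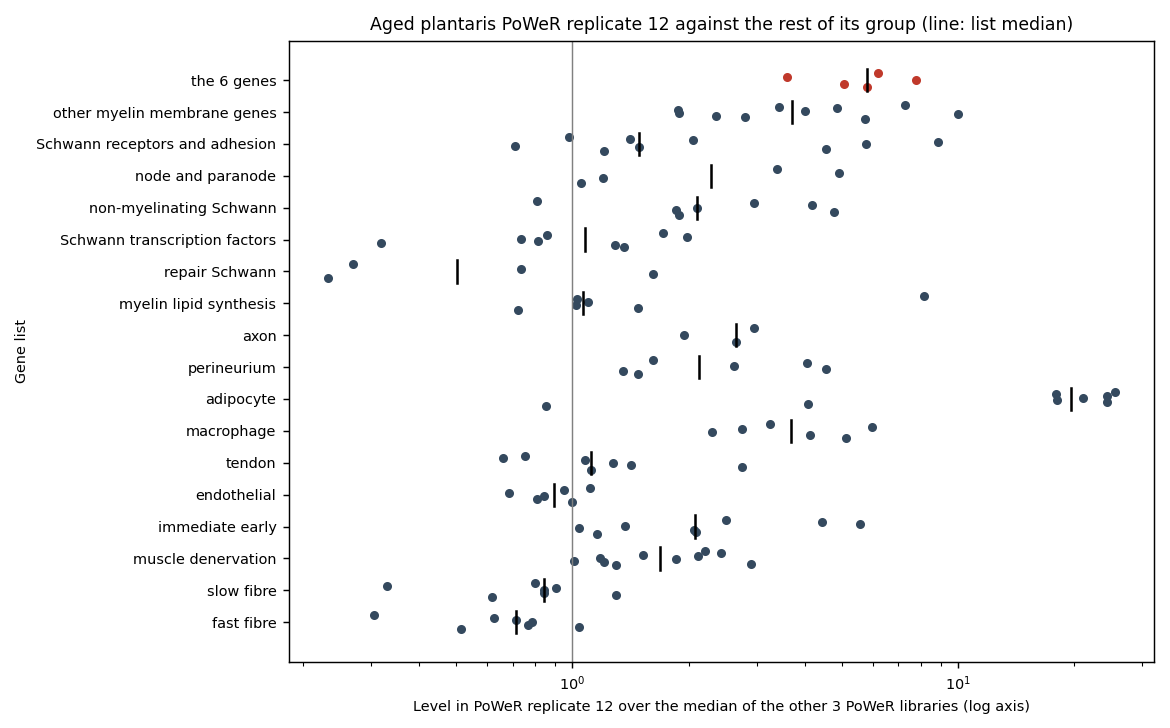
Level of each listed gene in aged plantaris PoWeR replicate 12 divided by the median of the other 3 PoWeR libraries of aged plantaris (log axis), 1 point per gene and 1 row per gene list, with a line at the list median. The 6 genes (red, 5 with a fold) lie between 3.59 and 7.77, the adipocyte list has a median of 19.6 and the slow and fast fibre lists have medians under 1.

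In aged soleus, no gene of the 6 passed the test between trained and sedentary mice. Mbp had 18.01, 16.4, 23.6 and 14.04 CPM in aged soleus PoWeR replicates 10, 12, 14 and 15, against 19.4, 11.1, 15.8, 17.8 and 14.6 CPM in aged soleus sedentary replicates 12 to 16. Pmp22 had 24.5, 32.8, 50.3 and 28.4 CPM in the PoWeR libraries, against 43.4, 35.9, 44.7, 36.6 and 28.2 CPM in the sedentary libraries. Prx had 4.195, 6.01, 8.02 and 4.18 CPM in the PoWeR libraries, against 4.05, 1.62, 3.59, 3.96 and 4.61 CPM in the sedentary libraries. The groups overlapped for each of the 3, and in Prx 2 PoWeR libraries lay above all sedentary ones.

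Mag in aged soleus ranged from 0.220 to 0.440 CPM with PoWeR, against 0 to 0.544 CPM in sedentary mice, and was not tested. Sox10 ranged from 0.606 to 1.15 CPM with PoWeR, against 0.373 to 1.14 CPM in sedentary mice. Egr2 had 0.615, 0.680, 0.220 and 0.551 CPM in the PoWeR libraries, against 0.547, 0.497, 1.36, 0.661 and 0.854 CPM in the sedentary libraries. Of the 5 genes tested, 0 passed, where 0.857% of all genes did. The log2 fold changes were 0.65 ± 0.29 for Prx (edgeR adjusted p = 0.349), 0.20 ± 0.18 for Mbp, 0.08 ± 0.41 for Sox10, -0.15 ± 0.20 for Pmp22 and -0.60 ± 0.48 for Egr2. EGR2 is also an immediate early factor outside Schwann cells, and the summed level of the 8 immediate early genes was 80.1 to 122 CPM in aged soleus PoWeR, against 120 to 282 CPM in aged soleus sedentary. The part of those genes' change in Egr2 was not tested.

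A few genes of the nerve lists rose in aged soleus, where 0.857% of all genes passed. Nrcam, an adhesion molecule of the node of Ranvier that is also made by other cells, rose by 2.60 ± 0.40 (log2; adjusted p = 0.00651), with 2.53 to 10.4 CPM in PoWeR, against 0.544 to 1.68 CPM in sedentary libraries. It was the 1 called of 5 tested node genes. Among receptors and adhesion molecules 1 of 10 rose, Dag1, which encodes dystroglycan and is also made by muscle fibres (0.38 ± 0.09, adjusted p = 0.0447), and it passed in 1 of 9 fits that left out 1 library. Among axon genes 1 of 3 rose, Uchl1 (1.03 ± 0.19, adjusted p = 0.0149), which missed without PoWeR replicate 12 (0.85, adjusted p = 0.0661). Which cells of the muscle sample made the Uchl1 RNA was not tested. None of the 9 other myelin membrane genes tested passed in either direction, and their median was 0.24. Genes of denervated muscle fibres moved in the same libraries: 9 of 11 estimates were above 0 with a median of 0.63, and Gadd45a (2.96 ± 0.58, adjusted p = 0.0293) and Runx1 (2.49 ± 0.52, adjusted p = 0.0365) rose, although they passed in 3 and 2 of 9 fits with 1 library left out. The summed level of the 11 was 250.1 to 576 CPM in aged soleus PoWeR, against 213 to 304 CPM in aged soleus sedentary, and the part of muscle in the change of the nerve lists was not tested.

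In young soleus none of the genes passed, and 4 of the 5 estimates lay below 0. Mbp had 14.96, 12.6, 17.1 and 22.7 CPM in young soleus PoWeR, against 21.6, 19.5, 24.8 and 21.9 CPM in young soleus sedentary. Pmp22 had 22.9, 31.4, 28.0 and 42.4 CPM in PoWeR libraries, against 34.1, 40.8, 43.8 and 46.1 CPM in sedentary libraries. In each of the pair, 3 of 4 PoWeR libraries were below every sedentary library. Prx had 7.01, 8.38, 16.7 and 9.83 CPM in PoWeR libraries, against 12.3, 10.7, 13.8 and 10.6 CPM in sedentary libraries, with the highest value of all in a PoWeR library. Sox10 had 0.631 to 1.73 CPM in PoWeR libraries, against 0.882 to 1.94 CPM in sedentary libraries. Egr2 had 0.316, 0.978, 0.802 and 0.993 CPM in PoWeR libraries, against 0.187, 0.407, 0.583 and 0.406 CPM in sedentary libraries, so that 3 PoWeR libraries lay above the sedentary range. Mag, which was not tested there, had 0.233 to 0.631 CPM in PoWeR libraries, against 0.124 to 0.680 CPM in sedentary libraries.

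The test called 0 of the 5 in young soleus, where 12.9% of all genes passed. That share moved with the libraries used. Leaving out sedentary replicate 2 gave 3.96% and leaving out replicate 3 of that group gave 8.36%, while PoWeR replicates 2 and 3, each left out in turn, gave 4.59% and 4.13%. It was 4.15% with a term for libraries low in a ribosomal RNA repeat and 2.57% with only the groups compared. The log2 fold changes were -0.35 ± 0.19 for Mbp (edgeR adjusted p = 0.237), -0.36 ± 0.21 for Pmp22, -0.14 ± 0.28 for Prx, -0.23 ± 0.41 for Sox10 and 0.99 ± 0.51 for Egr2 (adjusted p = 0.208). Of 7 tested genes of non-myelinating Schwann cells 3 passed and were higher with PoWeR, namely Cdh19, a cadherin of the Schwann cell lineage (1.12 ± 0.37, adjusted p = 0.0486), Scn7a (0.76 ± 0.24, adjusted p = 0.0433) and Ncam1 (0.68 ± 0.17, adjusted p = 0.0144). Ncam1 is also a marker of denervated muscle fibres. Of the 10 receptors and adhesion molecules, Lama2, the laminin chain of muscle and Schwann cell basement membranes, rose by 0.43 ± 0.14 and Cadm4, an adhesion molecule between Schwann cell and axon, fell by 0.60 ± 0.19. With 1 library left out, Cdh19 and Cadm4 each passed in 1 of 8 fits, Scn7a and Lama2 in 2 of 8 and Ncam1 in 6 of 8. Nrcam rose there by 3.16 ± 0.44 (adjusted p = 0.00149) and passed in 8 of 8.

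In the libraries labelled young plantaris, Mbp had 16.3, 15.97, 12.8 and 17.3 CPM with PoWeR, against 23.3, 21.2, 17.9 and 23.7 CPM in sedentary mice, and the groups did not overlap. How many of all genes separated in this way was not computed, here or in any other comparison. The share of counts in the ribosomal RNA repeat CT010467.1 nearly split the same libraries, at 0.242%, 0.326%, 2.73% and 0.282% with PoWeR, against 3.71%, 3.41%, 0.578% and 3.13% in sedentary mice, and with a term for libraries under 0.7% the log2 fold change of Mbp was -0.46 (edgeR adjusted p = 0.918). Pmp22 had 28.3, 31.3, 22.4 and 23.4 CPM with PoWeR, against 32.0, 28.0, 35.9 and 36.4 CPM in sedentary mice. Prx had 10.1, 10.5, 5.23 and 10.8 CPM with PoWeR, against 12.9, 8.03, 7.62 and 16.5 CPM in sedentary mice. Sox10 lay between 0.467 and 1.13 CPM with PoWeR, against 0.609 to 1.27 CPM in sedentary mice, and Egr2 between 0.218 and 1.03 CPM, against 0.406 to 0.892 CPM. Mag had 0.159, 0.480, 0.280 and 0.425 CPM with PoWeR, against 0.785, 0.609, 0.377 and 0.850 CPM in sedentary mice. Of the 6 genes tested, 0 passed, where 0.223% of all genes did (0.00644% to 1.46% with 1 library left out, 0.00654% with the repeat term), and the log2 fold changes were -0.45 ± 0.54 for Mbp (edgeR adjusted p = 0.798), -0.32 ± 0.41 for Pmp22, -0.29 ± 0.64 for Prx, -0.33 ± 0.55 for Sox10, -0.93 ± 0.84 for Mag and 0.00084 ± 0.64 for Egr2. The spread in this fit was estimated together with the aged plantaris libraries, which include PoWeR replicate 12.

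**Figure D3:**
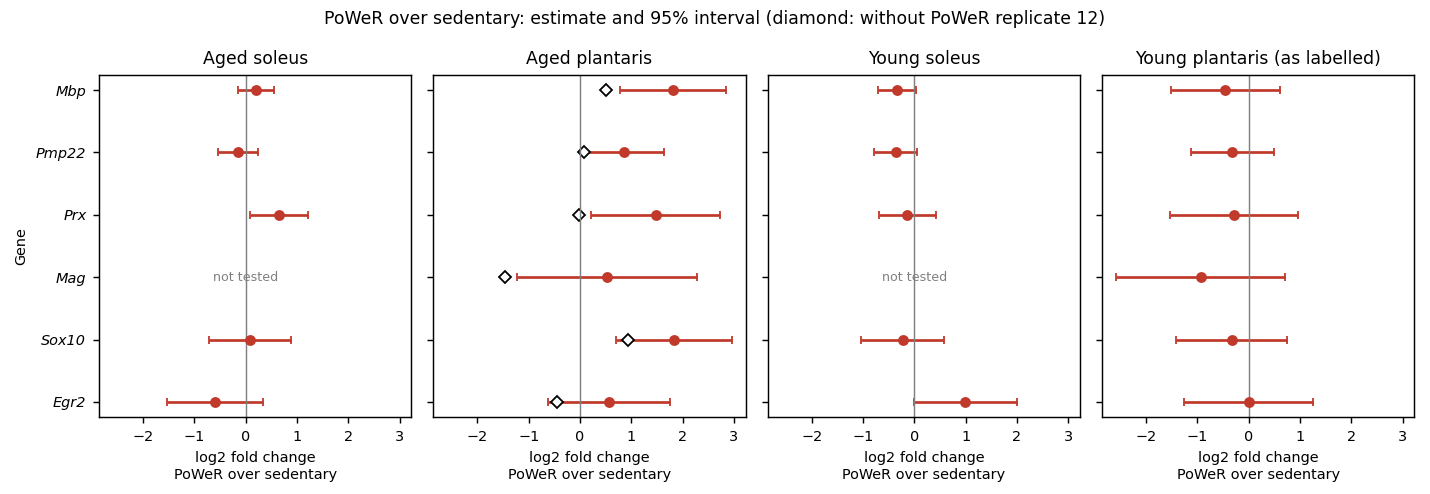
Log2 fold change of each gene, PoWeR over sedentary, with its 95% interval (points and bars), in the 4 pairs of groups; open diamonds give aged plantaris without PoWeR replicate 12. In aged plantaris Mbp stands at 1.81 with all libraries and at 0.51 without that one, and in the libraries of young mice 9 of the 11 estimates lie below 0, the other two being those of Egr2.

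Whether training acted differently in old and young muscle was tested as the difference of the 2 log2 fold changes, aged minus young. In soleus 0 of 14934 genes passed (0%), with 1995 at an unadjusted p under 0.05. Mbp differed by 0.54 ± 0.26, Prx by 0.79 ± 0.40 and Egr2 by -1.59 ± 0.70 (edgeR adjusted p = 0.377, 0.398 and 0.34). In plantaris 0 of 15280 genes passed (0%), with 1737 at an unadjusted p under 0.05, and Mbp differed by 2.26 ± 0.75 and Sox10 by 2.17 ± 0.80 (adjusted p = 0.303 and 0.316). Those 2 values include PoWeR replicate 12 of aged plantaris, and without it Mbp differed by 0.96 and Sox10 by 1.26.

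Prx was lower in aged than in young soleus, the difference with the lowest adjusted p among the 6 genes in any comparison. In sedentary mice Prx had 4.05, 1.62, 3.59, 3.96 and 4.61 CPM in aged soleus replicates 12 to 16, against 12.3, 10.7, 13.8 and 10.6 CPM in young soleus. No aged library reached 5 CPM and no young library was below 10 CPM. The log2 fold change, aged over young, was -1.67 ± 0.28 (edgeR adjusted p = 0.000127). In trained mice the levels of Prx were 4.195, 6.01, 8.02 and 4.18 CPM in aged soleus, against 7.01, 8.38, 16.7 and 9.83 CPM in young soleus. There the groups overlapped, and the log2 fold change was -0.88 ± 0.29 (adjusted p = 0.0216).

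Prx was the 1 gene of the 5 tested that passed in each of these comparisons, where 36.2% of all genes passed between sedentary aged and young soleus (16.7% lower) and 37.9% between trained aged and young soleus (18.1% lower). The difference in sedentary mice held in 9 of 9 fits that left out 1 library, with log2 fold changes of -1.77 to -1.52. In trained mice it held in 5 of 8, and without young soleus PoWeR replicate 3 it was -0.56 (adjusted p = 0.112), without aged soleus PoWeR replicate 10 -0.76 (adjusted p = 0.0639) and without replicate 15 -0.77 (adjusted p = 0.0653). Young soleus PoWeR replicate 3 was also the 1 soleus library with under 0.7% of its counts in CT010467.1, a ribosomal RNA repeat, and had the highest Prx of its group.

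The other 4 genes tested did not pass between aged and young sedentary soleus. Mbp ranged from 11.1 to 19.4 CPM in aged libraries, against 19.5 to 24.8 CPM in young libraries, with no overlap, and a log2 fold change of -0.42 ± 0.18 that missed the threshold (edgeR adjusted p = 0.0727). The share of all genes without overlap was not computed. Pmp22 averaged 37.7 ± 6.62 CPM in aged libraries (SD, n = 5) and 41.2 ± 5.21 CPM in young libraries (n = 4), with a log2 fold change of -0.07 ± 0.20. Sox10 averaged 0.797 ± 0.275 CPM in aged and 1.27 ± 0.476 CPM in young libraries (-0.62 ± 0.40). Egr2 averaged 0.784 ± 0.351 CPM in aged and 0.396 ± 0.162 CPM in young libraries (1.02 ± 0.49). Fos, an immediate early gene, rose by 2.36 ± 0.55 (log2; adjusted p = 0.00355) and Dusp1 by 0.67 ± 0.22 in aged soleus, 2 of the 8 in that list, and their part in the level of Egr2 was not tested.

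Ratios within a library, which no scaling between libraries enters, also set Prx apart between the ages in soleus. The ratio was chosen after the values of Prx were seen and is given as a description. In sedentary soleus there were 0.145 to 0.316 Prx reads per Mbp read in aged libraries, against 0.484 to 0.571 in young libraries. In trained soleus there were 0.233 to 0.367 in aged libraries, against 0.433 to 0.977 in young libraries. Neither pair of ranges overlapped. In sedentary plantaris the aged libraries, replicates 12 to 16, had 0.532, 0.216, 0.3475, 0.367 and 0.695 Prx reads per Mbp read. The sedentary libraries labelled young plantaris had 0.378 to 0.697, which overlapped, with medians of 0.367 in aged and 0.490 in young libraries. In trained plantaris the ranges did not overlap, at 0.239 to 0.399 in aged libraries, against 0.407 to 0.6585 in the libraries labelled young plantaris. Age and muscle cannot be told apart in the plantaris ratios. Pmp22 reads per Mbp read were 1.94 to 3.22 in aged and 1.58 to 2.10 in young sedentary soleus, which overlapped.

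**Figure D4:**
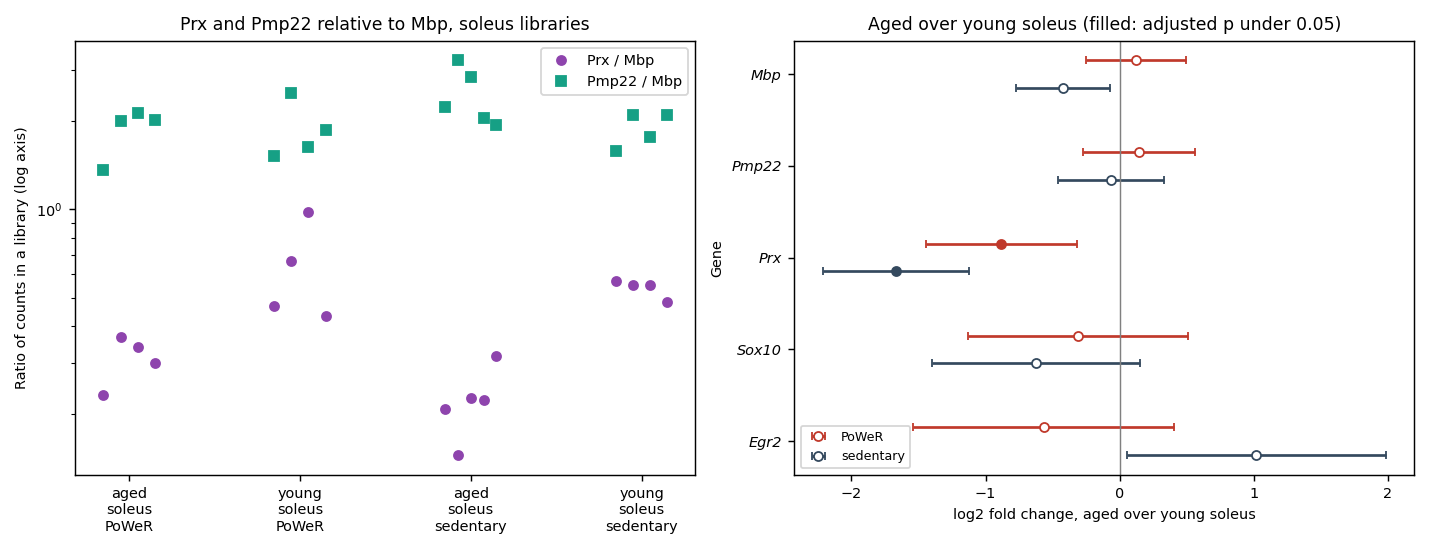
Left, Prx and Pmp22 reads per Mbp read in each soleus library (log axis), aged beside young. Right, log2 fold change with its 95% interval, aged over young soleus, for trained (red) and sedentary (dark) mice, filled where the adjusted p was under 0.05: Prx, at -0.88 with PoWeR and -1.67 in sedentary mice, was the 1 gene filled in both.

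Other genes of the nerve lists also differed with age in sedentary soleus, where 16.7% of all genes fell. Of 9 other myelin membrane genes tested, 2 fell and 0 rose, a share near that of all genes. Among them Ncmap, a myelin protein of peripheral nerve, fell by 1.16 ± 0.44 (log2; edgeR adjusted p = 0.0432) and passed in 2 of 9 fits with 1 library left out. All 9 estimates were below 0, with a median of -0.78, against 0.03 over all genes. Of 7 transcription factors listed for Schwann cells 3 fell: Pou3f1 (Oct6), which acts before Egr2 in promyelinating cells, fell by 1.49 ± 0.48, and Tead1 and Yy1, which most cell types express, fell by 0.44 ± 0.11 and 0.24 ± 0.08. Of 10 receptors and adhesion molecules 5 fell and 1 rose: Cadm4 fell by 1.08 ± 0.18 (adjusted p = 0.000128) and Gpr37l1 fell by 1.73 ± 0.56, while Erbb3, the receptor for axonal neuregulin that muscle and other cells also express, rose by 1.49 ± 0.19. Of 5 node genes 2 rose, Gldn by 1.10 ± 0.38, passing in 4 of 9 fits with 1 library left out, and Ank3 by 0.80 ± 0.17. Of 7 genes of non-myelinating Schwann cells Cdh2 fell by 1.72 ± 0.31 and Ncam1 rose by 0.71 ± 0.16.

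Genes of other tissue differed between the same libraries. All 7 tendon genes fell in aged sedentary soleus, among them Chad, which fell by 3.15 ± 0.39, and Fmod, which fell by 2.96 ± 0.40 (log2), and the summed level of the 7 was 63.4 to 126 CPM in aged libraries, against 284 to 587 CPM in young libraries. In trained soleus 6 of 7 fell, and the sum was 80.6 to 143 CPM in aged libraries, against 307 to 784 CPM in young libraries. Cldn1 of the perineurium fell by 1.62 ± 0.46 in sedentary soleus, 1 of 4 tested in that list. Of the 3 axon genes tested, Prph fell by 1.79 ± 0.56, Stmn2 fell by 0.96 ± 0.28 and Uchl1 rose by 1.08 ± 0.20. The part of connective tissue taken with the muscle in the level of Prx was not tested. The labels give no batch that would let age and library set be told apart.

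In trained soleus, 0 of the 9 other myelin membrane genes passed between the ages, where 37.9% of all genes did. Of 10 receptors and adhesion molecules 4 fell and 1 rose: Cadm4 fell by 0.97 ± 0.20 on the log2 scale (edgeR adjusted p = 0.000899), Lama2 fell by 0.74 ± 0.14, Adgrg6 fell by 1.34 ± 0.41 and Erbb3 rose by 0.91 ± 0.19. Of 7 genes of non-myelinating Schwann cells 2 rose and 1 fell: S100b rose by 1.80 ± 0.70 (adjusted p = 0.0493), Ncam1 rose by 0.66 ± 0.16 (adjusted p = 0.00332) and Cdh2, N-cadherin, fell by 0.89 ± 0.31. S100b passed in 1 and Cdh2 in 4 of 8 fits with 1 library left out, and Adgrg6 was -0.64 (adjusted p = 0.171) without young soleus PoWeR replicate 3. Of 5 node genes 1 rose, Gldn by 1.88 ± 0.38 (adjusted p = 0.000655), and of 7 transcription factors Tead1, Nab1 and Yy1 fell. Whether the age difference of Prx was itself smaller in trained than in sedentary mice is the aged minus young difference given above, 0.79 ± 0.40 with an adjusted p of 0.398.

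Between sedentary aged plantaris and the sedentary libraries labelled young plantaris, 3 of the 6 genes passed and fell, where 49.9% of all genes passed and 24.9% fell. Mbp had 5.29 to 13.1 CPM in aged libraries, against 17.9 to 23.7 CPM in young libraries (-1.39 ± 0.52, edgeR adjusted p = 0.0392). Prx had 1.14 to 4.81 CPM, against 7.62 to 16.5 CPM (-1.66 ± 0.64, adjusted p = 0.0412), and Sox10 had 0.180 to 0.762 CPM, against 0.609 to 1.27 CPM (-1.62 ± 0.57, adjusted p = 0.0232). Pmp22 had 11.5 to 26.6 CPM in aged libraries, against 28.0 to 36.4 CPM in young libraries (-0.79 ± 0.39, adjusted p = 0.107). Because the young libraries carry soleus-like myosin, age and muscle cannot be told apart in these values. With 1 library at a time left out, Mbp passed in 1 of 9 fits, the one without aged replicate 15, and Prx in 3 of 9, those without aged replicate 15 or young replicate 2 or 3. Sox10 passed in 5 of 9, and missed without aged replicate 13, 14 or 15 or young replicate 4.

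The study compared the 2 muscles of the same aged groups. In sedentary aged mice Pmp22 had 43.4, 35.9, 44.7, 36.6 and 28.2 CPM in soleus, against 23.7, 11.5, 20.4, 26.6 and 13.1 CPM in plantaris, with every soleus library above every plantaris library. The share of all genes that separated in this way was not computed. Mbp averaged 15.7 ± 3.16 CPM in soleus and 8.20 ± 3.02 CPM in plantaris (SD, n = 5 each), and Sox10 averaged 0.797 ± 0.275 CPM in soleus and 0.340 ± 0.242 CPM in plantaris. Prx was level at 3.57 ± 1.15 CPM in soleus and 3.55 ± 1.67 CPM in plantaris. The log2 fold changes, soleus over plantaris, were 1.01 ± 0.39 for Pmp22 (edgeR adjusted p = 0.0604), 1.25 ± 0.54 for Sox10 (adjusted p = 0.0855) and 0.97 ± 0.51 for Mbp (adjusted p = 0.161). None of the 5 genes passed, where 32.9% of all genes did, and the spread in this fit included PoWeR replicate 12 of aged plantaris. With that library and aged plantaris sedentary replicate 16 left out, 3 passed, Pmp22 at 0.91 (adjusted p = 0.0127), Sox10 at 1.77 (adjusted p = 0.00612) and Mbp at 0.91 (adjusted p = 0.00589). With the replicate number as a block, Pmp22 passed with all libraries (1.06, adjusted p = 0.0361); the muscles share these numbers in the labels, and 4 of 5 soleus libraries correlated best with the plantaris library of their own number.

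Calls among the other Schwann cell lists were mixed between the muscles of sedentary aged mice, where 32.9% of all genes passed. Drp2, the dystrophin relative that binds PRX, had 12.1 to 19.5 CPM in soleus, against 2.16 to 4.78 CPM in plantaris, a log2 fold change of 2.17 ± 0.48 (edgeR adjusted p = 0.00215). Of 9 receptors and adhesion molecules 4 rose and 0 fell, with Cadm4 at 1.38 ± 0.52 and Lama2 at 0.70 ± 0.14 among them, Cadm4 passing in 1 of 10 fits with 1 library left out. Of 5 node genes 4 rose, with Gldn at 1.85 ± 0.49 and Nrcam at 1.83 ± 0.55. Of 7 transcription factors 1 rose, Tead1 (0.72 ± 0.09), and of 7 genes of non-myelinating Schwann cells 1 rose, Ncam1 (1.99 ± 0.20). Of the 9 other myelin membrane genes 0 rose and 1, Cnp, fell by 0.67 ± 0.23, which passed in 5 of 10 fits with 1 library left out. The libraries labelled young plantaris had 15.9 to 20.3 CPM of Drp2 in sedentary mice, at the level of soleus.

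In trained aged mice the same comparison turned on PoWeR replicate 12. Of the 5 genes 0 passed, where 22.5% of all genes did, and Mbp averaged 18.01 ± 4.09 CPM in soleus and 27.9 ± 32.5 CPM in plantaris (SD, n = 4 each), a log2 fold change of -0.64 ± 0.54. Without replicate 12 it was 0.66 (edgeR adjusted p = 0.0727), on the same side as in sedentary mice. The soleus effect of training minus the plantaris effect was -1.61 ± 0.74 for Mbp and -1.75 ± 0.77 for Sox10 (adjusted p = 0.406 and 0.37), and 0 of 14823 genes passed (0%), with 1785 at an unadjusted p under 0.05. In sedentary young mice 0 of 6 passed between soleus and the libraries labelled plantaris, where 3.26% of all genes did. Pmp22 differed by 0.30 ± 0.16 and Mag by -1.17 ± 0.62 there.

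Libraries of 1 group that were high in one of the genes tended to be high in others. Correlations were computed on log2 CPM after the group mean was removed, over the 17 libraries of each muscle, for 30 pairs in all, with p from 100000 permutations within groups. In soleus 14 of 15 pairs had a positive Pearson r, with a median of 0.362, and 2 had an adjusted p under 0.05. Mbp and Sox10 had r = 0.806 and Spearman rho = 0.816 (permutation p = 0.00097 and 0.00096, adjusted p of r 0.018), and r = 0.6 without the 2 libraries farthest from the median. Prx and Sox10 had r = 0.752 and rho = 0.757 (permutation p = 0.00539 and 0.00186, adjusted p of r 0.0338), and r = 0.717 without 2.

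In plantaris all 15 pairs had a positive r, with a median of 0.596, and 3 had an adjusted p under 0.05. Mbp and Pmp22 had r = 0.898 and rho = 0.811 (permutation p = 0.00477 and 0.00574, adjusted p of r 0.0338), and r = 0.734 without 2 libraries. Mbp and Prx had r = 0.885 and rho = 0.887 (permutation p = 0.0012 and 0.00024, adjusted p of r 0.018), and r = 0.755 without 2. Prx and Sox10 had r = 0.777 and rho = 0.662 (permutation p = 0.00563 and 0.0098, adjusted p of r 0.0338), and r = 0.464 without 2. The median r of all 15 pairs fell to 0.148 without the 2 libraries farthest from the median of the first gene, and that of soleus to 0.161. Pairs with Egr2 had r of -0.0365 to 0.362 in soleus, and those with Mag rest on few reads.

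Among the genes most like the mean of the 6 over the 34 libraries, by Pearson r of group-centred log2 CPM among 13018 genes, were Ncmap (0.874), Ndrg1 (0.857), Scd2 (0.831) and Nrn1 (0.817). Ncmap and Ndrg1, a gene whose loss causes a demyelinating neuropathy, are known from peripheral nerve. Without aged plantaris PoWeR replicate 12 they included Ptgis (0.824), Cdh2 (0.794), Steap4 (0.758) and Yes1 (0.738). In the 17 plantaris libraries Drp2 (0.931) and Nrn1 (0.931) came first, and in the 17 soleus libraries Slc36a4 (0.924), Steap4 (0.898) and Ust (0.896). These are descriptions over libraries that share depth and tissue content, with the members' own counts low for 3 of the 6.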

How the data were processed

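The deposited file holds expected counts per gene, estimated by the authors and not normalized; per the submitters' processing notes, STAR 2.7.3a, Partek, DESeq2 and mm10 were used, with no role given. Groups came from the labels; aged plantaris libraries were placed by source name, since their titles say soleus. Expected counts were rounded and fitted with edgeR 4.0.16 in R 4.3.3: TMM, filterByExpr (minimum count 10, minimum total count 15), robust quasi-likelihood test, with calls at 0.05 after Benjamini-Hochberg adjustment across every gene of a fit. Fits used the 17 soleus, 17 plantaris, 18 aged or 16 young libraries and were tested on simulated counts. p-values set the difference between groups against the spread between samples, which may be technical.

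Alternatives were DESeq2 1.42.0, limma 3.58.1, other normalization, filter, samples and covariates, and each library left out. Exon lengths are from GENCODE vM21. List genes named in the text come from up to 4 called by size in each list, or 2 by smallest p; some that this rule names are not reported here. The 6 genes and all lists were chosen with earlier results of these data known. Same-numbered aged PoWeR libraries of the 2 muscles deviated together (r 0.12 to 0.195), taken as pairs from the labels' numbers; a block changed no call of the 6 genes there. Floors cover counting error only, and intervals of fold changes are 1.96 standard errors of the fits to each side. They are narrower than the edgeR test implies. Egr2 in sedentary aged over young soleus had an interval of 0.0531 to 1.987 with an unadjusted edgeR p of 0.0514.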

Additional observations from a re-analysis of the deposited data

Results flagged for a closer look

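Of 48 sets of libraries (6 genes in 8 groups), 7 had a library that stood far from the rest of its group by Dixon's test. By chance that test flags about 1 in 20 sets of normally distributed values. It was run on CPM without logs, so that rate may not hold here, nor for genes with few reads. Aged plantaris PoWeR replicate 12 gave 4 of the 7, with 76.6 CPM of Mbp, 75.7 CPM of Pmp22, 27.8 CPM of Prx and 2.44 CPM of Egr2, against group medians of 12.7, 22.3, 3.72 and 0.551 CPM. Coming from 1 library, the 4 are not independent of each other. The library also led its group in adipocyte genes (1728 CPM summed), and the part of that RNA was not tested. The others were single genes: Prx at 5.23 CPM in young plantaris PoWeR replicate 3 (group median 10.3 CPM), Sox10 at 0.762 CPM in aged plantaris sedentary replicate 16 (group median 0.240 CPM) and Mag at 0.680 CPM in young soleus sedentary replicate 3 (group median 0.155 CPM).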

How the results depend on the processing

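The count of the 6 genes that passed was 0 under each setting run for the PoWeR comparisons in aged soleus, aged plantaris, young soleus and the libraries labelled young plantaris, for the 3 differences of differences, for aged soleus over plantaris with PoWeR and for the young muscles. For aged over young sedentary soleus it was 1, and 2 under DESeq2, limma and only the groups compared (1 to 2 with 1 library left out), Mbp being the added gene. For trained aged over young soleus it was 1, and 0 with a term for the ribosomal RNA repeat (0 to 1 with 1 library left out). For aged over young sedentary plantaris it was 3, then 5 under limma, 4 with only the groups compared and 4 without 2 aged plantaris libraries (Pmp22 added in each), 1 without a filter on low counts and 1 with the repeat term (0 to 2 with 1 library left out). For aged sedentary soleus over plantaris it was 0, then 1 under DESeq2, 3 under limma, 2 with only the groups compared, 1 with the replicate block and 3 without 2 aged plantaris libraries (0 to 1 with 1 library left out). The cause was not tested.

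Signs turned as follows (log2). In aged soleus Sox10 was -0.031 under limma and -0.11 to 0.24 with 1 library left out. In aged plantaris Pmp22 was -0.0345 and Egr2 -0.66 without the 2 libraries, and Mag -1.61 without them and -0.46 under limma; with 1 left out Prx ranged from -0.0198 to 1.78, Mag from -1.46 to 1.22 and Egr2 from -0.45 to 0.87. In young soleus with 1 left out Prx ranged from -0.46 to 0.0083 and Sox10 from -0.57 to 0.043. Pmp22 between sedentary aged and young soleus ranged from -0.16 to 0.023. Mbp in trained aged soleus over plantaris was 0.28 under limma and 0.66 without the 2 libraries, and -0.92 to 0.66 with 1 left out.

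The replicate block made Pmp22 pass between the sedentary aged muscles (1.06, adjusted p = 0.0361) and changed no other call of the 6 genes, while Dag1, Gadd45a and Runx1 missed with it in aged soleus (adjusted p = 0.206, 0.495 and 0.542). Same-numbered sedentary libraries of the 2 muscles correlated at 0.031 to 0.204. In each direction, 4 of 5 of them correlated best with the library of their own number in the other muscle. Same-numbered PoWeR and sedentary libraries of a muscle correlated at -0.106 to 0.0696, so those share only a number in the labels. Where edgeR called 0 of all genes for a difference of differences, DESeq2 called 0.482% in soleus, 0.628% in plantaris and 1.23% between the aged muscles, and limma 0%, 0.955% and 0.202%. The repeat term could not be fitted in the aged libraries, since none was under 0.7%. DESeq2 gave no adjusted p for some low or outlying values, which are left out. Low counts of Mag, Sox10 and Egr2 limit what could be detected.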
